A study of Mus musculus with 24 samples.

Results

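The 10 genes followed here are widely used as readouts of glucocorticoid receptor activity. They are Tsc22d3, Klf9, Klf15, Zbtb16, Sgk1, Ddit4, Cdkn1a, Errfi1, Arrdc2 and Sult1a1, and they were measured in the prefrontal cortex (PFC) of mice given a single dose of dexamethasone (DEX). The genes were chosen by symbol, without a threshold on their values, but with earlier results of these data known. The counts of genes called below therefore describe this list and are not an independent test of it. All 10 were found among the 14074 genes of the deposited table.

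The PFC of 24 adult male C57BL/6 mice was profiled by bulk poly(A) RNA-seq, with 1 library per mouse and 6 groups of 4 mice. Control animals had no social defeat. The stressed animals lived through 30 days of chronic social defeat by CD1 aggressor males and carried the library labels dep1 (passive coping, PS) or dep2 (active coping, AS), a split that the study made by clustering the behaviour of the stressed mice. Each phenotype was given either saline or DEX at 2 mg/kg, and tissue was taken 6 h after the injection in all 6 groups. The tissue block held several cortical areas, so that a level is an average over neurons, glia and vessels, and a change in the number of cells of a type cannot be told apart from a change in RNA per cell.

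DEX is a synthetic agonist of the glucocorticoid receptor, a ligand-activated transcription factor that moves to the nucleus after binding the hormone. There it binds paired hexamers in DNA, the glucocorticoid response elements, and raises the transcription of nearby genes, many of which restrain inflammation, growth factor signalling and protein synthesis or feed back on the receptor itself. In the brain, the corticosterone released during stress acts on the same receptor and on the mineralocorticoid receptor.

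To show the sequence around members that move together, the promoters that RefSeq lists for them (250 bases before to 50 bases after a start site, build GRCm38.p6) were searched for the response element hexamer TGTTCT and its reverse complement AGAACA. Promoters were matched for 9 of the 10 genes, with 18 windows in all. At least 1 hexamer was present in 5 of the 18 windows (27.8%), against 19.0% of all 32851 windows and 12.3% of the 12960 windows of genes in the table. Most of the windows with a hexamer belonged to Sgk1, the gene with the most windows, and the rest to Tsc22d3 and Sult1a1. The share over windows therefore leans on Sgk1. The full palindrome, AGAACA followed by any 3 bases and TGTTCT, which holds the hexamer on both strands, was present in 1 of the 18 windows, which belonged to Sgk1, against 3 of all 32851 windows. The palindrome stood 189 bases before the start site of its own window and 965 bases before the start site of the next Sgk1 window, at chr10:21993701-21993715. The windows below are the Sgk1 window with the palindrome and the windows of Tsc22d3 and Sult1a1 that held a hexamer. The other Sgk1 windows with a hexamer are not shown. They are written 5′ to 3′ on the strand of the gene, with each hexamer in capitals.
Sgk1, chr10:21993640-21993939, plus strand: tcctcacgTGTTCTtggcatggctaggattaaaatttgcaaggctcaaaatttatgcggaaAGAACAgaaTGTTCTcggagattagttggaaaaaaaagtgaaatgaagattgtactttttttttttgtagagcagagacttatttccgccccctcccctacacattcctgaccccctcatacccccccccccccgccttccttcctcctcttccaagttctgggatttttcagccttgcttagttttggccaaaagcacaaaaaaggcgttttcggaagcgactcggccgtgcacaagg
Tsc22d3, chrX:140600473-140600772, minus strand: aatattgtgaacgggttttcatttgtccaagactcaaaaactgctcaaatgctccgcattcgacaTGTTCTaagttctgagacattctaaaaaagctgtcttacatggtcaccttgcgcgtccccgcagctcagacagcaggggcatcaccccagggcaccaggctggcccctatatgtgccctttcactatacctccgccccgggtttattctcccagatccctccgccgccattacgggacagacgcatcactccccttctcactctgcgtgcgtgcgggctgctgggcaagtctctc
Sult1a1, chr7:126676369-126676668, minus strand: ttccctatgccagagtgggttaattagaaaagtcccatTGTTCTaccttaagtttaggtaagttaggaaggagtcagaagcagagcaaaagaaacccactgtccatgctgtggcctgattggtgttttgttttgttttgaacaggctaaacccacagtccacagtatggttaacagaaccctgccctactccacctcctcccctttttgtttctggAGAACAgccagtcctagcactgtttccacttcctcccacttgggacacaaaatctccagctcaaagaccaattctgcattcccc
No hexamer was found in the windows of Klf9, Klf15, Ddit4, Cdkn1a, Errfi1 or Arrdc2. Such a match is a run of letters and not a measured binding site, and the search covered these windows alone.

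DEX raised 9 of the 10 genes in control animals, 9 of 10 in PS animals and 9 of 10 in AS animals, and lowered none of them. The gene that did not pass in any single phenotype was Errfi1. Differences were tested with limma on log2(normalized count + 1) over all 14074 genes, and a gene with a Benjamini-Hochberg adjusted p under 0.1 was called a DEG. Among all genes, the share called higher with DEX was 4.03% in control, 2.74% in PS and 3.82% in AS mice. Over the mean of the 3 phenotypes, 10 of 10 genes were called higher, against 7.46% of all genes. The median response of the 10 genes was 0.67 (log2) in control, 0.78 in PS and 0.74 in AS mice, while the median over all genes lay between -0.01 and 0.00. All DEX counts exceeded all saline counts of the phenotype for 8 genes in control animals (5.81% of all genes), 9 in PS animals (5.54%) and 9 in AS animals (4.0%). This held in all 3 phenotypes for 8 of the 10 genes and for 1.23% of all genes. The stress phenotypes did not move any of the 10 genes past the threshold, with saline or with DEX, as described further below.

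**Figure D1:**
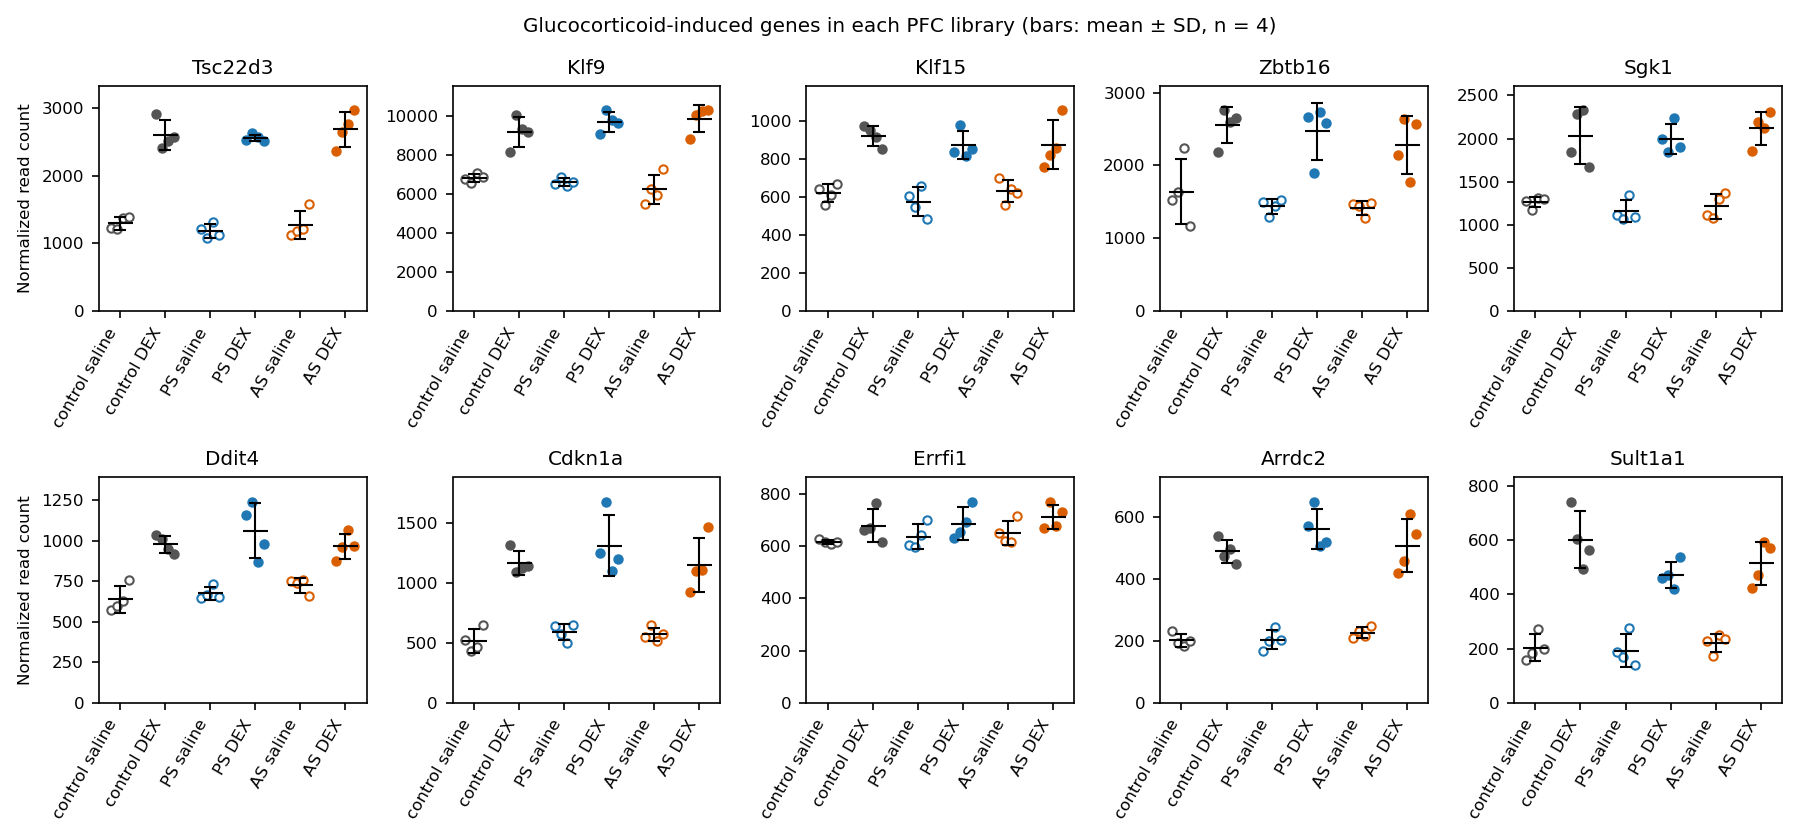
Normalized read count (vertical axis, from 0) of each of the 10 genes in every PFC library, with open points for saline, filled points for DEX and bars for the mean ± SD of 4 libraries. Saline and DEX points are fully separated within each phenotype for all genes except Errfi1 and, in control animals, Zbtb16.

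Of the transcription regulators, Tsc22d3 (chrX:140539528-140600659, minus strand) encodes GILZ, a leucine zipper protein that restrains NF-kB and AP-1 activity. Among controls, the Tsc22d3 counts were 1222, 1211, 1383 and 1384 with saline and 2917, 2411, 2506 and 2573 with DEX. The PS animals had 1210.4, 1085, 1324 and 1121 with saline and 2533, 2626, 2565 and 2512 with DEX. Those of the AS animals were 1122, 1191, 1216 and 1585 with saline and 2359.5, 2649.8, 2763 and 2969.7 with DEX. Every DEX library lay above every saline library, with a lowest DEX count of 2359.5 and a highest saline count of 1585. The log2 response was 1.0 in control (95% interval 0.81 to 1.19), 1.11 in PS (0.92 to 1.30) and 1.08 in AS animals (0.89 to 1.27). The treatment accounted for 94.7% of the variance of Tsc22d3 over the 24 libraries, the highest share among the 10 genes, and 4.63% lay within groups. The spread was smallest in PS animals given DEX, with a coefficient of variation of 1.94% over the 4 mice.

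Klf9 (chr19:23141226-23168134, plus strand) encodes a Krüppel-like repressor that acts on neuronal maturation and on the circadian clock. Controls had Klf9 counts of 6756, 6562, 7073 and 6867 with saline against 8142, 10029, 9313 and 9159 with DEX. For PS mice the counts were 6529.9, 6860.0, 6407 and 6623 (saline) and 9077, 10285, 9767 and 9615 (DEX). For AS mice they were 5498, 6248, 5952 and 7259 (saline) and 8819, 10049, 10229 and 10271 (DEX). The saline and DEX libraries did not overlap in any phenotype. Klf9 was the most abundant of the 10 genes per length, at 1361 normalized counts per kb of exon with saline and 1986 with DEX. Its response was modest in fold, at 0.42 (95% interval 0.27 to 0.58) in control, 0.55 (0.40 to 0.70) in PS and 0.66 (0.51 to 0.81) in AS mice. In counts per kb, its gain of 625 was the largest among the 10 genes.

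Klf15 (chr6:90462576-90475238, plus strand) encodes another Krüppel-like factor, known for turning on amino acid catabolism and for antagonizing growth programmes. Its counts ranged from 484 to 701 over the 12 saline libraries and from 759 to 1057 over the 12 DEX libraries, with no overlap. The mean rose from 620.0 ± 46.7 to 923 ± 53.6 (SD, n = 4 each) in control animals, from 575 ± 75.7 to 872 ± 73.8 in PS animals and from 632 ± 58.4 to 874 ± 129 in AS animals. These are log2 responses of 0.57, 0.60 and 0.46, each with an SE of 0.10.

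Zbtb16 (chr9:48654297-48836222, minus strand) encodes PLZF, a zinc finger repressor whose induction by glucocorticoids is known from many tissues. With saline, the Zbtb16 counts of control mice were 1528, 1634, 2241 and 1163, and with DEX they were 2191, 2759, 2598 and 2649. Those of PS mice were 1495, 1293, 1442 and 1519 against 2661, 1895, 2728 and 2584, and those of AS mice 1474, 1447, 1273 and 1483 against 2140.5, 2642, 1778 and 2565. In control animals the groups overlapped, because the saline mouse 109 (2241) exceeded the DEX mouse 101 (2191). The log2 response was 0.67 in control (adjusted p = 0.00743 in limma), 0.77 in PS (adjusted p = 0.00233) and 0.67 in AS animals (adjusted p = 0.00671). Without control saline mouse 109, the response of control animals was 0.83 (adjusted p = 0.000515). Without control saline mouse 117, it was 0.52, the lowest value with a library left out, and was still called. Of the 9 genes called in each phenotype, Zbtb16 had the lowest share of variance from treatment, 72.7%, with 23.96% within groups.

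Among the kinases and brakes on kinase signalling, Sgk1 (chr10:21882184-21999903, plus strand) encodes a kinase that regulates ion channels and transporters and acts downstream of mTORC2. Its counts ran from 1068 to 1371 with saline and from 1669 to 2329 with DEX. The ranges did not overlap, and the lowest DEX count was that of control mouse 122. The mean rose from 1264 ± 61.6 to 2033 ± 327 in control, from 1156 ± 128 to 1996 ± 171 in PS mice and from 1214 ± 142 to 2119 ± 192 in AS mice (SD, n = 4 each). The coefficient of variation among control mice was 16.1% with DEX and 4.87% with saline.

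Ddit4 (chr10:59949669-59951834, minus strand) encodes REDD1, which restrains mTORC1 through the TSC1-TSC2 complex. Among controls, the Ddit4 counts were 574, 594, 626 and 758 with saline and 1034, 1007, 948 and 915 with DEX. The PS animals had 645, 664, 734 and 653 with saline and 1158, 1240.1, 870.5 and 977 with DEX. Those of the AS animals were 751, 736, 754 and 658 with saline and 874, 962, 1063 and 964 with DEX. All 12 DEX libraries lay above all 12 saline libraries. The log2 response was 0.62 (95% interval 0.42 to 0.82) in control, 0.64 (0.44 to 0.84) in PS and 0.41 (0.21 to 0.61) in AS mice. The adjusted p was 0.000244, 0.00018 and 0.0109 in limma.

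Cdkn1a (chr17:29090976-29100727, plus strand) encodes p21, an inhibitor of cyclin-dependent kinases and a classic p53 target. Controls had Cdkn1a counts of 521, 428, 464 and 650.4 with saline against 1315, 1091, 1128 and 1144 with DEX. For PS mice the counts were 639.6, 574, 501 and 645 (saline) and 1254, 1680.4, 1101 and 1204 (DEX). For AS mice they were 549, 649, 515 and 571 (saline) and 923, 1101, 1109 and 1466 (DEX). The lowest DEX count, 923 in AS mouse 38, was above the highest saline count of 650.4. The fold change was 2.29 in control, 2.2 in PS and 1.99 in AS mice, with log2 responses of 1.19, 1.14 and 0.99 (SE 0.14 each). The PS mouse 34, with 1680.4, had the highest count of all libraries.

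Errfi1 (chr4:150853919-150868892, plus strand) encodes MIG6, a feedback inhibitor of the EGF receptor family. With saline, the Errfi1 counts of control mice were 628, 616, 609 and 618, and with DEX they were 663, 668, 768 and 616. Those of PS mice were 604, 597, 643 and 701 against 632, 653, 693 and 772, and those of AS mice 652, 620.1, 615 and 715 against 670.2, 768, 677 and 731. The saline and DEX groups overlapped in each phenotype, and 4 of the 12 DEX libraries lay above the highest saline count. The log2 response was 0.13 in control (95% interval -0.03 to 0.29), 0.11 in PS (-0.05 to 0.27) and 0.13 in AS animals (-0.03 to 0.29). In limma the adjusted p was 0.457, 0.629 and 0.408. Averaged over the phenotypes it was 0.12 (0.03 to 0.22), with an adjusted p of 0.0748 that rose above 0.1 when any 1 of 12 particular libraries was left out (largest value 0.149, without control DEX mouse 112). Within-group spread made up 62.8% of the variance of Errfi1 and treatment 30.2%. Errfi1 held rank 1612 of 14074 by size of rise, while the other 9 genes held ranks between 20 and 176.

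The largest fold changes belonged to the genes of trafficking and metabolism. Arrdc2 (chr8:70835129-70839720, minus strand) encodes an arrestin-domain protein, a family that links membrane proteins to ubiquitin ligases. Among controls, the Arrdc2 counts were 231, 192, 184 and 201 with saline and 539, 473, 496 and 448 with DEX. The PS animals had 168, 199.8, 246 and 202 with saline and 572, 651, 507 and 521 with DEX. Those of the AS animals were 209, 233, 214 and 248 with saline and 419.7, 457, 612 and 545 with DEX. The saline and DEX libraries did not overlap in any phenotype. The fold change was 2.42 in control, 2.76 in PS and 2.22 in AS mice, and 93.5% of the variance lay between the treatments. Per length it was the least abundant of the 10 genes, at 65.2 normalized counts per kb with saline and 161 with DEX.

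Sult1a1 (chr7:126672865-126676432, minus strand) encodes a phenol sulfotransferase that conjugates phenolic drugs and catecholamines. Controls had Sult1a1 counts of 159, 182, 273 and 198 with saline against 743, 606, 492 and 565 with DEX. For PS mice the counts were 186, 168, 278 and 138 (saline) and 461, 471, 421 and 539 (DEX). For AS mice they were 227, 171, 248 and 236 (saline) and 425, 473, 593 and 570.0 (DEX). The highest saline count, 278 in PS mouse 62, stayed below the lowest DEX count, 421 in PS mouse 52. The log2 response was 1.57 (95% interval 1.20 to 1.95) in control, 1.34 (0.96 to 1.71) in PS and 1.22 (0.84 to 1.60) in AS mice. These were fold changes of 2.98, 2.53 and 2.33.

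**Figure D2:**
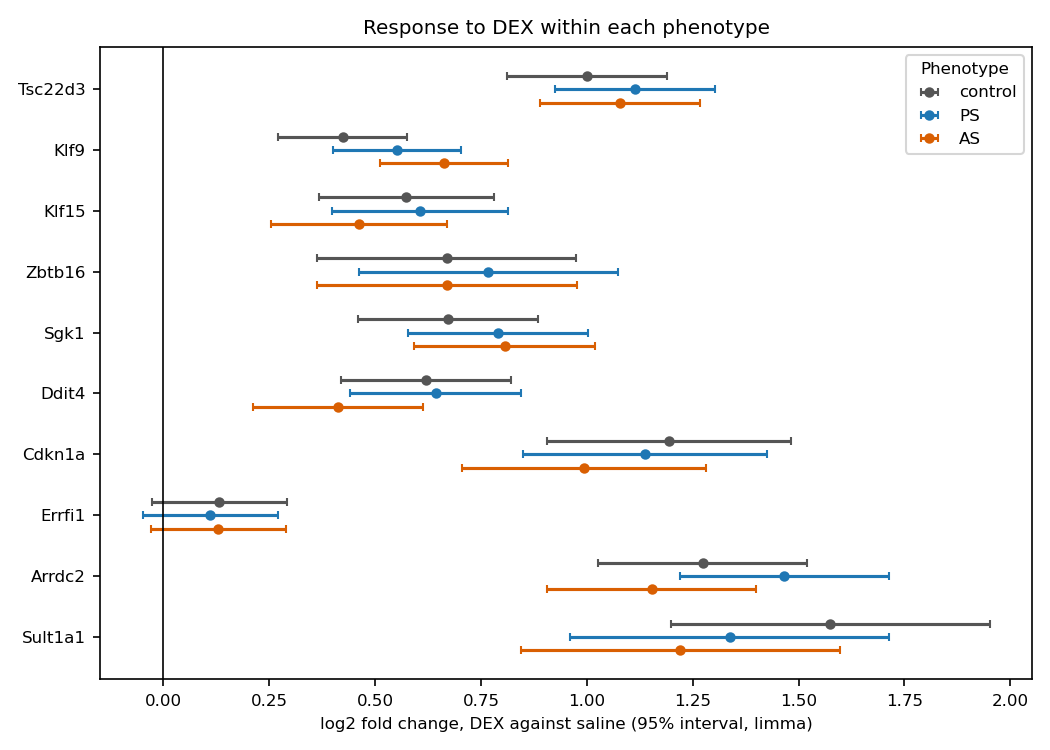
Log2 fold change of DEX against saline (horizontal axis, points with 95% intervals from limma) for each of the 10 genes in control, PS and AS animals, 4 libraries per group. The intervals of 9 genes lie above 0 in each phenotype, and those of Errfi1 include 0.

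With saline, none of the 10 genes was called between PS and control animals (1.51% of all genes were called), between AS and control animals (0.156%) or between AS and PS animals (0.0%). In limma none of the 10 had an unadjusted p under 0.05 in these comparisons, against 1850, 1548 and 671 of all 14074 genes. Both edgeR and DESeq2 also called 0 of 10. The differences between PS and control animals ran from -0.16 (Zbtb16) to 0.20 (Cdkn1a) on the log2 scale, and those between AS and control animals from -0.17 (Zbtb16) to 0.19 (Ddit4). The 95% intervals give the range of differences that these data allow. For Tsc22d3 the PS difference lay between -0.32 and 0.05, and for Sult1a1, the gene measured least precisely, between -0.48 and 0.28. For each of the 10 genes the 3 saline means lay below the 3 DEX means, and within a treatment the order of the phenotypes differed from gene to gene. Of the 5 steps between neighbouring means, only that from saline to DEX exceeded 1 SD for 8 genes. For Ddit4 the step from PS to AS animals with saline did so as well, and for Errfi1 none did.

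After DEX, again none of the 10 genes was called between PS and control animals (0.199% of all genes), between AS and control animals (0.867%) or between AS and PS animals (0.0%), with 0 of 10 at an unadjusted p under 0.05 in limma and 0 of 10 called by edgeR and DESeq2. Of all 14074 genes, 1975, 1891 and 580 had such a p in limma. The difference farthest from 0 was that of Sult1a1 between PS and control animals, at -0.34 (95% interval -0.71 to 0.04). The mean count of Sult1a1 was 601 ± 105 in control, 473 ± 48.8 in PS and 515 ± 79.4 in AS mice (SD, n = 4 each). The counts of control and PS mice overlapped, since the lowest control count of 492 fell below the highest PS count of 539.

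The DEX response itself was then compared between phenotypes through interaction terms. PS minus control and AS minus control share the control libraries. None of the 10 genes was called for PS minus control (0.0% of all genes), for AS minus control (0.348%) or for AS minus PS (0.0%). edgeR and DESeq2 called 0 of 10 as well. At an unadjusted p under 0.05 limma had 0, 1 and 0 of the 10 genes in these 3 comparisons. Of all 14074 genes it had 1404, 1902 and 344, so that 1 of 10 is near the share over all genes. The member was Klf9, whose response was 0.24 larger in AS than in control animals (SE 0.10, 95% interval 0.02 to 0.45, adjusted p = 0.307). It became a call without AS saline mouse 44 (0.31, adjusted p = 0.0778), the mouse with the highest Klf9 count of the saline libraries (7259). Over the other alternatives and left-out libraries the adjusted p of this difference ran from 0.243 to 0.602. For Tsc22d3 the responses differed by 0.11 between PS and control animals (95% interval -0.15 to 0.38) and by 0.08 between AS and control animals (-0.19 to 0.35).

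**Figure D3:**
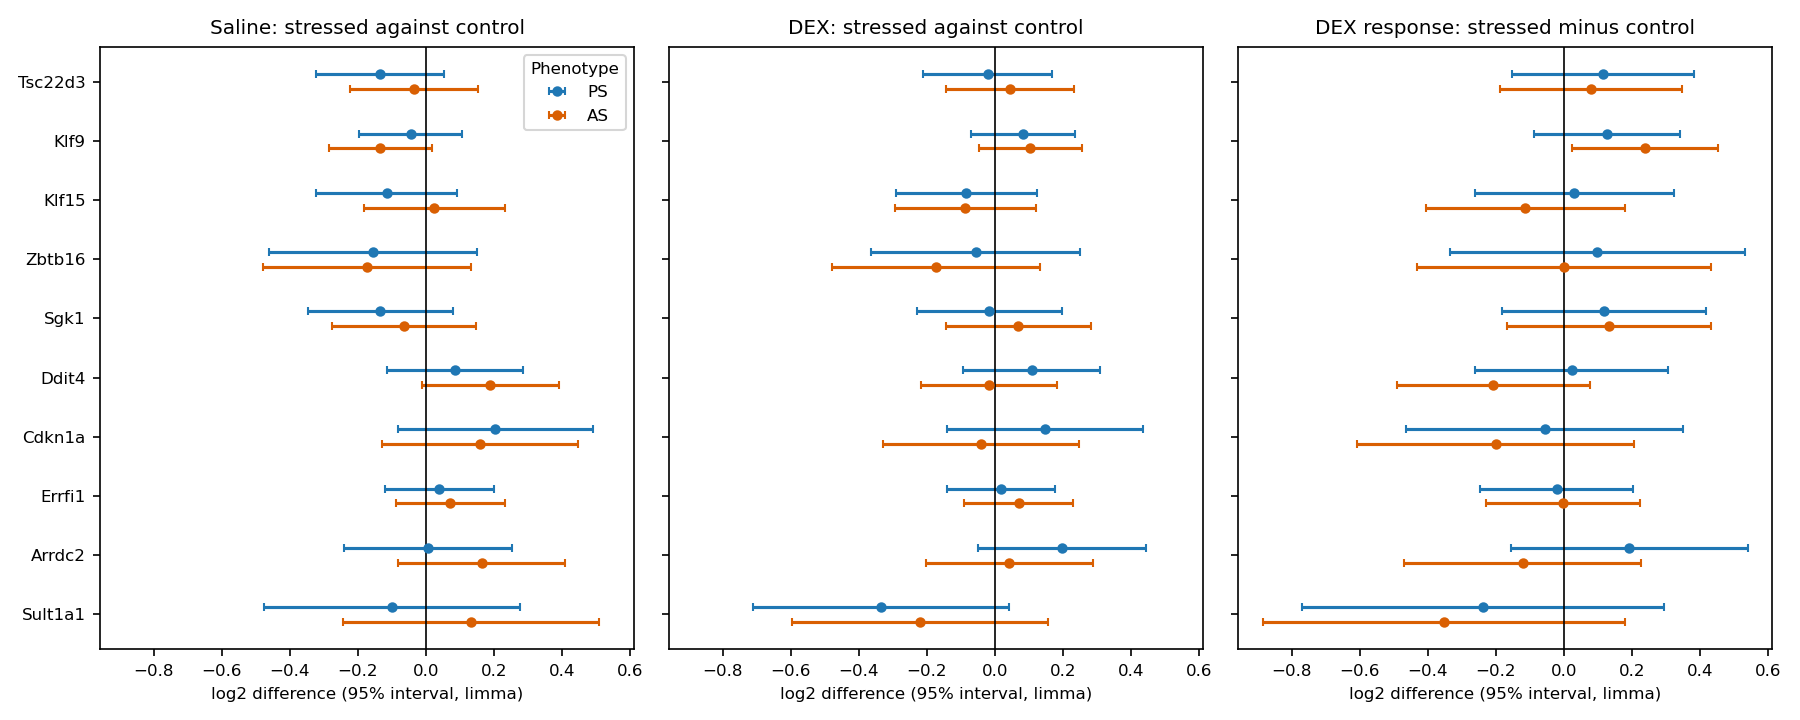
Log2 differences (horizontal axes, points with 95% intervals from limma) of PS and AS animals from control animals with saline, with DEX, and in the response to DEX, for each of the 10 genes. All intervals include 0 except that of Klf9 in the response of AS animals (0.02 to 0.45).

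Close relatives of the members were called in both directions. Of 34 listed relatives, 24 were measured, and over the mean of the 3 phenotypes 4 rose, 3 fell and 17 were not called, with a median response of 0.00, where 15.5% of all genes were called in either direction and 7.46% were called higher. Within phenotypes, the relatives ran from -0.32 to 0.73 in control, -0.47 to 0.32 in PS and -0.55 to 0.33 in AS animals. In the Klf family, 1 of 11 measured relatives rose and 3 fell in the mean response. Klf13 rose by 0.32 (SE 0.05, adjusted p = 9.58e-05 in limma), with 0.33, 0.32 and 0.33 in control, PS and AS animals, and Klf16 fell by 0.42 (adjusted p = 6.44e-06). Tsc22d4, a leucine zipper relative of Tsc22d3, rose by 0.16 (adjusted p = 0.0732), and the other two relatives did not pass. Sgk3 rose by 0.24 (adjusted p = 0.0104) and Arrdc3 by 0.24 (adjusted p = 0.00814). The measured relatives of Ddit4 (Ddit4l), Cdkn1a (Cdkn1b and Cdkn1c) and Sult1a1 (Sult2b1 and Sult4a1) were not called in the mean response, by limma, edgeR or DESeq2, and 0 of these 5 had an unadjusted p under 0.05 in limma. Of all 14074 genes, 3112 had such a p. Cdkn1c was at -0.39 in AS animals (adjusted p = 0.0610), and its response there differed from that of control animals by -0.53 (adjusted p = 0.169 in limma). In that comparison edgeR called neither Cdkn1b nor Cdkn1c, and DESeq2 called 1 of them lower.

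**Figure D4:**
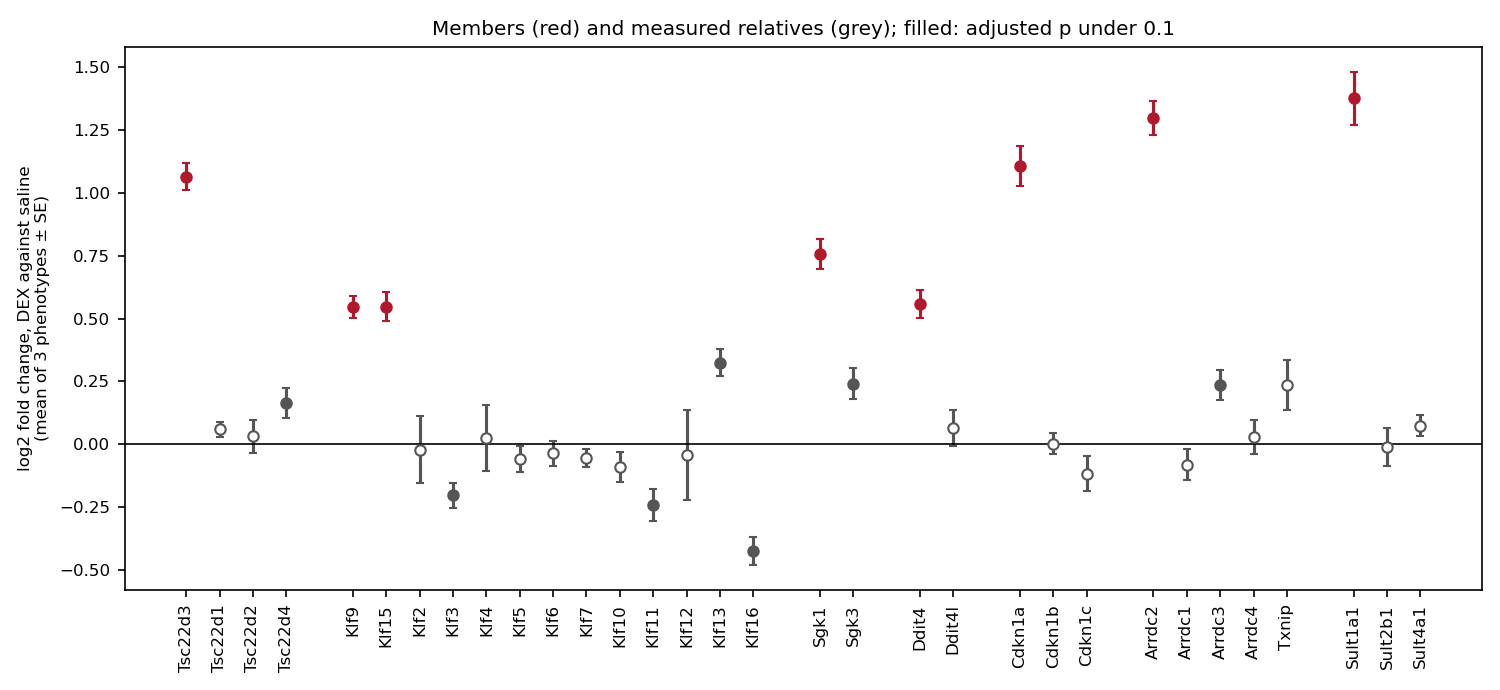
Log2 fold change of DEX against saline averaged over the 3 phenotypes (vertical axis, ± SE from limma) for members with measured relatives (red) and those relatives (grey), grouped by family, with filled points for an adjusted p under 0.1. In this mean each member drawn lies above 0.5, and the highest relative, Klf13, lies at 0.32.

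The pathways around the members were read against the 7.46% of all genes called higher in the mean response. Of 15 genes of mTORC1 and the partners of Ddit4, 1 rose in the mean response (median 0.03). It was Sesn1, a sestrin that restrains mTORC1 and a p53 target, at 0.48 (SE 0.04, adjusted p = 8.01e-10 in limma). None of the 8 measured ErbB receptors and ligands, the targets of Errfi1 among them, was called in any phenotype or in the mean response (median 0.05). At an unadjusted p under 0.05, limma had 2 of the 8 in control and 1 each in PS animals, in AS animals and in the mean response, and edgeR and DESeq2 called 0 of 8. Of all 14074 genes, limma had 2154, 1921, 2565 and 3112 at such a p in these comparisons. Of 13 p53 targets besides Cdkn1a, 5 rose and none fell (median 0.10). The largest rise was that of Trp53inp1, at 0.65 (adjusted p = 8.75e-06 in limma). Mdm2, a canonical target, was at 0.08 (adjusted p = 0.233) and Bax, a promoter of apoptosis, at -0.05 (adjusted p = 0.779). Mdm2 and Bax were named after their values were seen, and the activity of p53 was not tested. Of 10 regulators and substrates of Sgk1, 4 rose (median 0.07), led by the ubiquitin ligase Nedd4l at 0.28 (adjusted p = 0.00102). Of 7 measured genes of amino acid catabolism or control tied to Klf15, 2 rose (median 0.03). Klf9 was among them and is already counted among the 10 members. The only other rise was that of Prodh, the first enzyme of proline breakdown, at 0.44 (adjusted p = 4.07e-05).

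Of 25 other glucocorticoid-induced genes, 16 rose in control, 17 in PS and 14 in AS mice, and 20 rose in the mean response. None fell in these comparisons in limma or edgeR, and DESeq2 called 1 lower in AS animals. The largest rise was that of Plin4, a lipid droplet protein, at 4.19 (SE 0.17, adjusted p = 1.36e-14 in limma). Fkbp5, the co-chaperone that lowers the affinity of the receptor for its hormone, rose by 2.06 (SE 0.06), and Per1, a clock gene, by 0.21 (SE 0.05, adjusted p = 0.00331). Both receptor genes fell. Nr3c1, the glucocorticoid receptor, was at -0.39 (adjusted p = 3.04e-05) and Nr3c2, the mineralocorticoid receptor, at -0.30 (adjusted p = 0.000177), whereas Hsd11b1, which regenerates the active hormone, was at 0.01 (adjusted p = 0.980). The DEX response of AS minus control animals was called, lower, for 1 of the 25 genes in limma and edgeR and for 2 in DESeq2. In limma 9 of the 25 had an unadjusted p under 0.05, as did 1902 of all 14074 genes. The median of this difference was -0.29 over the list and 0.00 over all genes. The gene called in limma was Tgm2, a transglutaminase that is also found in vessels, which was named after its value was seen. It was at 0.64 in control and at -0.45 in AS animals (adjusted p = 0.0306 and 0.131), a difference of -1.09 (adjusted p = 0.0785).

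The mean of the 10 genes, each centred on the 24 libraries, was between -0.51 and -0.27 in the saline libraries and between 0.21 and 0.54 in the DEX libraries. The genes whose profile over the 24 libraries was most like it, out of 12008 other genes whose mean normalized count was 100 or more, were Fkbp5 (Pearson r 0.990), Gm19439 (0.975), Plin4 (0.975), Spns2 (0.974), a sphingosine-1-phosphate transporter, and Wipf3 (0.973). These values include the split into saline and DEX, which all libraries share. With the mean of each group removed, the highest were Ciart (0.772), a circadian repressor, Fkbp5 (0.766), Pparg (0.751), Irak1bp1 (0.746) and B230303A05Rik (0.730). These are the highest of the same 12008 genes, and how high such a maximum runs by selection alone was not tested. In the mean DEX response limma called Ciart and Fkbp5 but not Pparg, Irak1bp1 or B230303A05Rik (adjusted p = 0.366, 0.266 and 0.120). Among the 10 genes themselves, 33 of 45 pairs varied in the same direction within groups (median r 0.27). The range was from -0.54 for Ddit4 and Zbtb16 to 0.61 for Tsc22d3 and Sult1a1. These are descriptions over 24 libraries that share normalization.

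Markers of other cell types moved with some of the groups in which the members were compared. The summed normalized count of 12 endothelial markers ranged from 7481 to 10476 with saline and from 8425 to 12547 with DEX in control animals. It ranged from 6731 to 9999 and from 4201 to 9913 in PS animals and from 6674 to 12164 and from 4729 to 7269 in AS animals. With DEX, 0 of 12 were called in control animals (median 0.32, 1 at an unadjusted p under 0.05, and 0 called by edgeR and DESeq2), 1 fell in PS and 7 fell in AS mice (median -0.70). Of all 14074 genes, limma called 346, 369 and 697 lower with DEX in control, PS and AS animals. It called 567, 386 and 537 higher, and the marker counts below stand against these. Of 8 mural markers, 5 fell in AS animals. None was called in control or PS animals, where 1 each had an unadjusted p under 0.05 and edgeR and DESeq2 called 0. The mural sum ranged from 5231 to 6987 with saline and from 5860.4 to 8941 with DEX in control, from 5149 to 6760.1 and from 3524 to 6941 in PS, and from 4938 to 8637 and from 3828 to 4902 in AS animals. Of 8 oligodendrocyte markers, 2 fell in control and 2 rose in AS animals. Their sum ranged from 30646 to 48347 with saline and from 26667 to 38182 with DEX in control, from 24889.9 to 36032 and from 31598 to 40606 in PS, and from 20136 to 34348 and from 32147 to 47265 in AS animals. Of 8 microglial markers, 2 fell and 1 rose in control animals, 3 fell in PS and 3 in AS mice, with P2ry12 lower in all 3 phenotypes (-0.42, -0.69 and -0.51). The microglial sum ranged from 9023 to 10311 with saline and from 8894 to 11419 with DEX in control, from 9936 to 10629 and from 8735 to 9330.2 in PS, and from 10808 to 11488 and from 8643 to 10186 in AS animals. In the difference between the DEX responses of AS and control animals, limma called 0 markers of any list. At an unadjusted p under 0.05 it had 12 of 12 endothelial markers (median -0.90), 8 of 8 mural (-0.85), 7 of 8 oligodendrocyte (0.82) and 4 of 8 microglial markers (-0.26). Of all 14074 genes, 1902 had such a p. In this comparison edgeR called 1 mural marker lower. DESeq2 called 5 endothelial, 4 mural, 4 microglial and 1 astrocyte marker lower and 4 oligodendrocyte markers higher, and no marker of the other lists. The part of these cell types in the sizes of the responses, and in the Klf9 difference, was not tested. Slc17a7 and Camk2a, 2 of the 8 markers of pyramidal neurons, were abundant in all groups and were not called with DEX. Of all 8 pyramidal markers, however, 2 fell in the mean response in limma and edgeR, and DESeq2 called 2 lower and 1 higher. In that response limma called 15.5% of all genes in either direction. Of 6 striatal markers, 4 were measured, and 1, 1 and 2 of them rose with DEX in control, PS and AS animals. In the mean response 3 of the 4 rose. The striatal sum ranged from 3280 to 4008 with saline and from 4189 to 4998 with DEX in control animals. It ranged from 3121 to 3823.5 and from 3930 to 4481 in PS, and from 3386 to 3961 and from 4364 to 5839 in AS animals. The saline and DEX sums did not overlap in any phenotype. With group means removed, Pearson r between each member and the log2 striatal sum ran from -0.12 (Zbtb16) to 0.73 (Klf15). Over all members and marker lists it ran from -0.66 (Zbtb16) to 0.75 (Cdkn1a), both with the GABAergic sum. These r are descriptions with no p, and the part of the marked cells or regions in the responses of the members was not tested. Of 5 blood markers none was called by limma, edgeR or DESeq2, and 0, 3 and 0 had an unadjusted p under 0.05 in control, PS and AS animals. Of all 14074 genes, 2154, 1921 and 2565 had such a p with DEX in limma. For 5 measured leptomeningeal markers, 1 rose in control animals, and for 8 astrocyte markers 1 rose in control, 1 rose and 1 fell in PS and 2 fell in AS mice. Of 5 markers of oligodendrocyte precursors, 2 rose and 1 fell in control animals. Of 8 pyramidal markers 1 fell in control and 1 rose in AS animals, and of 8 GABAergic markers 1 rose in control and 1 in AS animals. No marker was at 0 in any library.

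The libraries held 21121869 to 59439645 reads on genes (median 24420130), and the median was higher in AS animals (34242532 with saline and 37876626 with DEX) than in the other groups (22869703 to 24187702). With the log2 depth of each library as a covariate, 9 of 10 genes were again called in each phenotype. Mitochondrial genes took 4.38% to 6.93% of the reads. Over the 36 pairs of libraries within groups, the lowest chi-square per gene was 5.74, so that no 2 of them were the same within counting noise.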

How the data were processed

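PFC RNA from 24 mice was sequenced as strand-specific poly(A) libraries, 1 per mouse, in 6 groups of 4. Per the labels and the study's methods, reads were trimmed with fastp 0.20.1, aligned to mm10 (GRCm38) with HISAT2 2.2.1 and counted per GENCODE vM22 gene with featureCounts (Subread 2.0). The authors deposited a signal, the count of each gene divided by the size factor of its library from DESeq2 1.36.0, for all 14074 genes of the table. Dividing by the worth of 1 read returned whole reads (within 0.01 reads) for 100% of the values and gave the depth of each library. The authors' own comparison tables, which hold fold changes and p-values, were not used except for gene coordinates. Libraries of the dorsal raphe nucleus were not analysed here.

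The deposited values were tested as log2(normalized count + 1) with limma 3.58.1 in R 4.3.3, with 1 mean per group, a mean-variance trend and moderated variances over the 24 libraries. Benjamini-Hochberg adjustment covered all 14074 genes, and an adjusted p under 0.1, the study's threshold, made a call. A pseudocount of 1 shrinks the fold of low genes slightly. The alternatives were a pseudocount of 8, a mean of at least 100 normalized counts, at least 10 reads in each library (the study's filter, met by 13161 genes), quantile and TMM scaling, the compared groups alone, log2 depth as a covariate, the quasi-likelihood test of edgeR 4.0.16 on the recovered reads, the Wald test of DESeq2 1.42.0, and each library left out. On those reads, both count tests called 9 of the 10 genes in each phenotype. Recovery of known changes was checked on simulated data. Levels per length used the summed exon length of each gene in a GENCODE annotation of the same build. Promoter sequences are those of RefSeq (GRCm38.p6), matched by symbol for 9 of the 10 genes. The 10 genes, the other gene lists and the tests were chosen with earlier results of these data known. Values are given for the 10 genes, for Fkbp5, Per1, Nr3c1 and Nr3c2, for the largest rise and fall among the called genes of each list, and for the 5 genes most like the members by each correlation. Other genes with values (Tsc22d4, Sgk3, Arrdc3, Cdkn1c, Mdm2, Bax, Hsd11b1, P2ry12 and Tgm2) were chosen after their values were seen. Each library is a separate mouse, so that p-values measure the spread between these mice.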

Additional observations from a re-analysis of the deposited data

Results flagged for a closer look

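Of 60 sets of 4 libraries (10 genes in 6 groups), 1 held a library far from the other 3 by Dixon's criterion, which chance alone meets in about 1 of 20 sets. It was Klf9 in AS animals given DEX, where mouse 38 had a normalized count of 8819 and the other 3 mice had 10049, 10229 and 10271 (gap ratio 0.847). This count was still above the highest Klf9 count with saline, 7259.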

How the results depend on the processing

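No paired analysis was possible because each mouse number occurs in 1 group. The rise of the 9 genes in each of 3 phenotypes was called under all 891 settings tried (27 responses, each under 9 alternatives and without each of 24 libraries), with a highest adjusted p of 0.0520. Of 4280 values for single genes, 12 lost their call, all of them the mean response of Errfi1 with 1 library left out, so that the number of genes called in the mean response was 9 to 10. 1 value gained a call, Klf9 in the response of AS minus control animals, and the number of genes called in that comparison was 0 to 1 (1 without AS saline mouse 44). In addition, 94 values that were not called changed sign. The count over all genes depended more on single libraries. For DEX in AS animals it was 1234, 673 to 1985 without single libraries and 753 (the compared groups alone) to 1614 under the other alternatives. For AS minus control animals it was 49, 4 to 686 without single libraries and 1 to 439 under the other alternatives. For PS against control animals it was 213 with saline (57 to 348, and 134 to 523) and 28 with DEX (3 to 254, and 0 to 225), and for AS against control animals it was 22 with saline (12 to 49, and 5 to 99) and 122 with DEX (3 to 403, and 0 to 417). It was 0 for AS against PS animals with saline (0 to 5, and up to 11) and with DEX (0 to 2, and up to 4), and 0 for PS minus control animals (0 to 3, and up to 23). The cause of these shifts was not tested. With 4 mice a group, the 95% intervals give the range of differences that the data allow and are not a limit of detection.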
